A study of Mus musculus with 4 samples.

Results

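The lipopolysaccharide receptor gene Tlr4 was examined together with the genes of its co-receptors and of related receptors in sorted alveolar epithelial cells of type II (AEC2), which make surfactant and act as stem cells of the lung alveolus. The 10 genes were Tlr4, Ly96, Cd14, Lbp, Cd180, Ly86, Tlr1, Tlr2, Tlr3 and Tlr6, of 18193 genes named on the array. All probe sets whose annotation gave 1 of these symbols alone were taken, which were 15 of 45037 probe sets. The 4 groups were Tlr4-/- mice 4 days after bleomycin, wild-type mice 4 days after bleomycin, untreated Tlr4-/- mice and untreated wild-type mice, with 1 array each. Each array held RNA of AEC2 pooled from 4 to 5 mice, so the groups have no replicates and their own spread is unknown; whether a difference exceeds it cannot be measured. Bleomycin injures the lung epithelium. The sources used here do not give the Tlr4 allele, the mice's age, sex or strain, or the markers used for sorting.

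TLR4 is a receptor of innate immunity at the cell surface. It binds lipopolysaccharide of bacteria through its partner MD-2, the product of Ly96, after the serum protein LBP (Lbp) and the membrane protein CD14 (Cd14) have handed the lipid over. CD180 resembles the outer part of TLR4 without its signalling domain and pairs with MD-1, the product of Ly86, a relative of MD-2. TLR2 senses bacterial lipopeptides as a dimer with TLR1 or TLR6, and TLR3 senses double-stranded RNA in endosomes. Fragments of the matrix polymer hyaluronan have been described as ligands of TLR2 and TLR4, and the series asks how hyaluronan and TLR4 bear on AEC2 renewal and on lung fibrosis.

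In the GRCm38.p6 annotation, Tlr4 lay at chr4:66827551-66846581, Ly96 at chr1:16688456-16709605, Lbp at chr2:158306493-158332852 and Tlr3 at chr8:45395665-45411075. Cd180 at chr13:102693547-102706631 and Ly86 at chr13:37345345-37419036 shared a chromosome. Tlr1 at chr5:64924680-64933600 and Tlr6 at chr5:64953092-64970942 were neighbours, with 19491 bases between them. Tlr2 lay at chr3:83836272-83841824. The sources used here do not say where the probes of each set fall in these genes.

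From the RefSeq table of start-site windows (GRCm38.p6, 250 bases before to 50 after an annotated start site), 6 of the 10 genes were read, Tlr1, Tlr2, Tlr3, Tlr6, Cd180 and Ly86. Tlr4, Ly96 and Lbp had no entry there, and no sequence is shown for Cd14. The windows of Tlr2, Ly86 and Tlr3 are shown because their probe sets were the ones at least 2-fold higher after bleomycin in wild type (values below). Each is written 5′ to 3′ along the gene, at chr3:83841559-83841858 (minus strand) for Tlr2, chr13:37345095-37345394 (plus strand) for Ly86 and chr8:45410331-45410630 (minus strand) for Tlr3. The start site of the Ly86 window is the 5′ end of the annotated gene, whereas that of Tlr2 lies 216 bases and that of Tlr3 695 bases inside the gene. Capitals mark matches to the NF-kB consensus on either strand.
Tlr2: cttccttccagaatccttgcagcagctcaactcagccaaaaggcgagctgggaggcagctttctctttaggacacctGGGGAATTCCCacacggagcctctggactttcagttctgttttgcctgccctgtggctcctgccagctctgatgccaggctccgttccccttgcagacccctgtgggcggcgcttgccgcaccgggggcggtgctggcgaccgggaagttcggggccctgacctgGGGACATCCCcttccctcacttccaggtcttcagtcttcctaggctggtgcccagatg
Ly86: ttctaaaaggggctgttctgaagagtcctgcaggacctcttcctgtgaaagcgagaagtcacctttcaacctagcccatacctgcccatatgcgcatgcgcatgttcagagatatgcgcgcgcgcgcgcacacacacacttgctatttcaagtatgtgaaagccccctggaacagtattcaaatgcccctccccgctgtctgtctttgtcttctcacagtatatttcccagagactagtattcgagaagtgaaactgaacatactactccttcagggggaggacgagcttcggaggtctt
Tlr3: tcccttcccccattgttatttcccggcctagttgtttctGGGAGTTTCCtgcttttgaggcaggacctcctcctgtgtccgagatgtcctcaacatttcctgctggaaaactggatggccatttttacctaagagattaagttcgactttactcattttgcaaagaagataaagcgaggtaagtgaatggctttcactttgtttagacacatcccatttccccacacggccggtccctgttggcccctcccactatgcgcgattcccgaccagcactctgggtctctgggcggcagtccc
With the start site as base 0, the Tlr2 window held 3 NF-kB matches, of which 2 overlapped one another at -173 to -164 and -172 to -163 and the other ran from -8 to 1. The Tlr3 window held 1, at -211 to -202, and the Ly86 window held 0. Of the 32851 windows in the table, 8.46% held at least 1 such match. Further searches on both strands were for the interferon-stimulated response element (in 3.44% of windows), TGANTCA (AP-1, 7.81%), TTCNNNGAA (STAT sites, 8.3%) and GAGGAA (the PU-box of the myeloid factor PU.1, 28.3%), and no match to these was found in the 3 windows shown. A match describes the letters of a window and is not a measured binding site.

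The 4 arrays had medians between 6.93 and 6.97 in log2 signal per probe set, the unit of all levels below. A probe set was tested where its mean over the 4 arrays exceeded 6.96, the median over all probe sets, which kept 22518. AEC2 markers were present, as the label says: all 11 genes of the AEC2 list on the array passed, and the surfactant gene Sftpc (1418639_at) read 14.1 on every array. The spread between 2 arrays, taken from the limma prior, was 0.26 (log2). It rests on differences between the genotypes' responses and not on replicate pools, and all limma p-values below share that basis. The genotypes differed by at least 2-fold in more probe sets when untreated (1.26% higher and 0.941% lower in Tlr4-/-) than at day 4 (0.195% higher and 0.151% lower). Bleomycin differences are therefore also given within each genotype, and genotype differences within each treatment.

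Tlr4 itself was read by 4 probe sets, and they differed in how they read the knockout. Probe set 1418163_at had 6.39 in the Tlr4-/- day 4 array and 9.07 in the wild-type day 4 array, against 7.24 in the Tlr4-/- untreated array and 8.87 in the wild-type untreated array. Both Tlr4-/- arrays lay below both wild-type arrays, and the gap of 1.63 between the nearest of them exceeded the spread between arrays. The signal was 6.42-fold lower in Tlr4-/- than in wild type at day 4 and 3.09-fold lower in untreated cells, and it was the only receptor probe set tested that was at least 2-fold lower, beside 0.151% of all tested probe sets at day 4 and 0.941% in untreated cells. The Tlr4-/- day 4 value lies under the floor, so the size of the day 4 fold is uncertain. Among the 5180 tested probe sets that were lower in Tlr4-/- in both treatments, it ranked first (rank 1) by the smaller of its 2 differences. Only 3 of 22518 tested probe sets (0.0133%) were at least 2-fold lower in both, and the others belonged to Bpifb1 and Gfpt1.

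None of the other 3 Tlr4 probe sets was lower in Tlr4-/- by more than the spread. Probe set 1418162_at had 10.3 in the Tlr4-/- day 4 array and 9.88 in the wild-type day 4 array, against 10.4 in the Tlr4-/- untreated array and 9.71 in the wild-type untreated array. Probe set 1442827_at had 8.39 in Tlr4-/- at day 4 and 7.90 in wild type at day 4, with 8.09 in untreated Tlr4-/- and 7.65 in untreated wild-type cells. Both were higher in the 2 Tlr4-/- arrays than in the 2 wild-type arrays. The remaining probe set, 1430695_at, lay between 3.89 and 4.05 on all 4 arrays, near the lower end of all values.

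Set against another Tlr4 probe set on the same array, the change of 1418163_at does not depend on how the arrays were scaled by a constant. The log2 difference between 1418163_at and 1418162_at was lower in Tlr4-/- than in wild type by 3.09 at day 4 (column value -3.09) and by 2.29 in untreated cells (-2.29). Against 1442827_at the same quantity was -3.17 at day 4 and -2.06 in untreated cells, and against the dim 1430695_at it was -2.60 and -1.65. Because 1418163_at was picked for the lowest untreated genotype difference, these contrasts restate its values and add no separate support. The probe sets of this gene thus changed unequally between the genotypes. Why they did so was not tested. The allele and the places of the probes are not known here, so the probe sets that were not lower check nothing about the label.

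**Figure D1:**
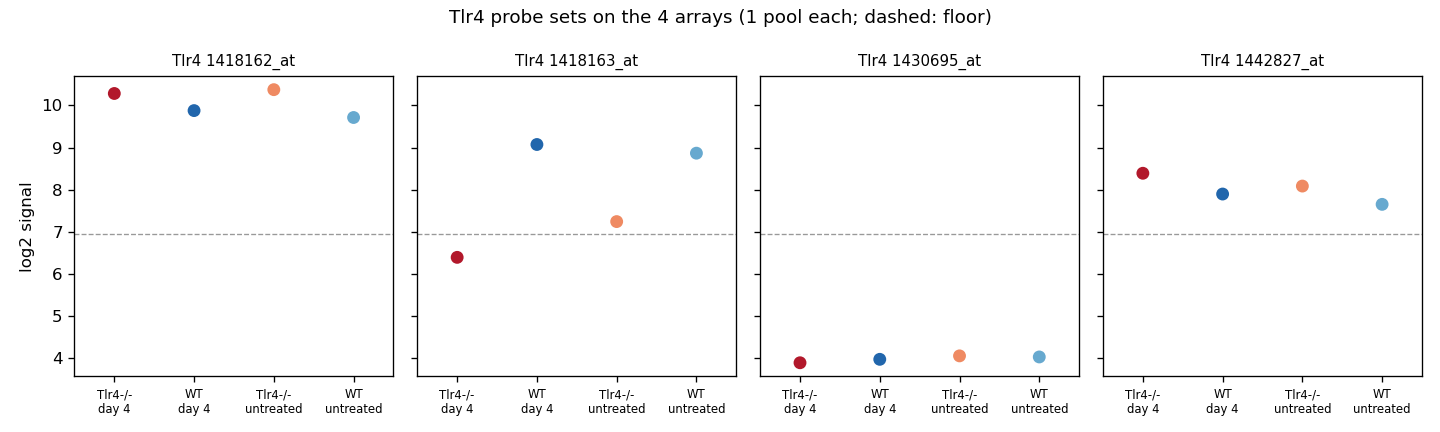
Log2 signal (y axis) of each of the 4 Tlr4 probe sets on the 4 arrays (x axis), 1 point per array and pool, with the floor of 6.96 dashed. Probe set 1418163_at reads 6.39 and 7.24 in the Tlr4-/- arrays against 9.07 and 8.87 in the wild-type arrays, whereas 1418162_at and 1442827_at read higher in the Tlr4-/- arrays.

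Across both treatments, limma called 0 of the 10 tested probe sets of these receptors for genotype, with a background of 0.0% over all tested probe sets (0 of 22518, with 1573 at an unadjusted p under 0.05). Probe set 1418163_at of Tlr4 had the most negative estimate among them, -2.15 ± 0.26 (SE, log2, lower in Tlr4-/- in 2 of 2 treatments), with an unadjusted limma p of 8.15e-05 and an adjusted limma p of 0.698 (0.325 to 0.779 over the alternatives). Probe sets 1418162_at and 1442827_at had estimates of 0.53 ± 0.18 and 0.46 ± 0.17 (limma adjusted p = 0.698 and 0.703). At an unadjusted p under 0.05 the genotype fit had 3 of 10 tested probe sets, all of them of Tlr4, beside 6.99% of all tested probe sets. The other 7 had estimates between -0.26 for Cd14 and 0.25 for the Lbp probe set 1447520_at.

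After bleomycin, Ly86 and Tlr2 rose, and Ly96, Cd14 and Tlr3 were higher in both genotypes without passing the test. Ly86 rose by 1.40 ± 0.18 (SE, log2, limma adjusted p = 0.0172), with higher values at day 4 in 2 of 2 genotypes. Ly86 entered the test through its day 4 values alone, and without the filter on dim probe sets its adjusted limma p was 0.0749. Tlr2 rose by 1.18 ± 0.19 (limma adjusted p = 0.0302, higher in 2 of 2 genotypes), with an adjusted p of 0.0974 without that filter. These were 2 of 10 tested probe sets, beside 2.26% of all tested probe sets called in either direction and 1.83% called higher, a count that the filter bears on and from which nothing is read. At an unadjusted limma p under 0.05 there were 5 of 10, beside 19.6%, and the same 5 probe sets were higher by more than the spread in both genotypes, beside 13.7%. Tlr4 was not called through any of its tested probe sets, whose bleomycin estimates were 0.04, -0.32 and 0.27. Without the filter limma called 0 of 45037 probe sets (6645 at an unadjusted p under 0.05), and the Tlr2 call ended after quantile normalization (adjusted p = 0.0714) and after centring on array medians (adjusted p = 0.0515). Over the alternatives that tested them, the adjusted p ranged from 0.00318 to 0.0749 for Ly86 and from 0.000665 to 0.0974 for Tlr2.

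Of the co-receptors, Ly96, which encodes MD-2, had 7.55 in the Tlr4-/- day 4 array and 7.40 in the wild-type day 4 array, against 6.66 in untreated Tlr4-/- and 6.56 in untreated wild-type cells. Both day 4 arrays lay above both untreated arrays by more than the spread, while the genotypes within each treatment lay within it. The estimate was 0.87 ± 0.17 (limma adjusted p = 0.0581), which did not pass. Cd14, on chromosome 18, whose product hands lipopolysaccharide to TLR4, had 10.5 in Tlr4-/- and 10.7 in wild type at day 4, against 9.57 in untreated Tlr4-/- and 9.96 in untreated wild-type cells. The treatments did not overlap in Cd14, though how many of all probe sets do the same was not counted. In untreated cells Cd14 was lower in Tlr4-/- by more than the spread (-0.39). Its estimate was 0.83 ± 0.18 (limma adjusted p = 0.0696), not past the threshold, although it passed in 4 of 7 alternatives.

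Lbp, which encodes the lipopolysaccharide-binding protein, was read by 2 probe sets. Probe set 1448550_at had 10.73 and 10.68 in the Tlr4-/- and wild-type day 4 arrays, against 10.68 and 10.74 in the Tlr4-/- and wild-type untreated arrays. Its range of 0.0585 over the 4 arrays was smaller than the spread. The other probe set, 1447520_at, had 7.65 and 7.77 in the Tlr4-/- and wild-type day 4 arrays, against 8.29 and 7.67 in the Tlr4-/- and wild-type untreated arrays. Only the untreated Tlr4-/- array stood apart in it, by 0.52 from the next array.

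Ly86, which encodes MD-1, had 7.70 in the Tlr4-/- day 4 array and 7.78 in the wild-type day 4 array, against 6.14 in untreated Tlr4-/- and 6.54 in untreated wild-type cells. The treatments did not overlap, again without a count over all probe sets, and in untreated cells Ly86 was lower in Tlr4-/- by more than the spread (-0.40). It was 2.96-fold higher after bleomycin in Tlr4-/- and 2.36-fold higher in wild type. Its receptor partner Cd180 was dim on every array and was not tested, with 5.20 in Tlr4-/- and 4.97 in wild type at day 4, against 4.88 in untreated Tlr4-/- and 4.62 in untreated wild-type cells. The 4 Cd180 values ran in the same order as those of Ly96, and no 2 neighbours in that order differed beyond the spread. Within each genotype Cd180 was higher at day 4 by more than the spread, by 0.32 in Tlr4-/- and 0.34 in wild type, at a dim signal.

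Tlr2 had 7.97 in the Tlr4-/- day 4 array and 8.13 in the wild-type day 4 array, against 6.98 in untreated Tlr4-/- and 6.76 in untreated wild-type cells. It was 1.99-fold higher after bleomycin in Tlr4-/- and 2.59-fold higher in wild type, and the genotypes lay within the spread of each other in both treatments. Its dimer partners were below the floor and not tested. Tlr6 had 6.52 and 6.60 in the Tlr4-/- and wild-type day 4 arrays, against 6.79 and 6.60 in the Tlr4-/- and wild-type untreated arrays, with no neighbouring values apart by more than the spread. Tlr1 had 4.46 and 4.58 in the Tlr4-/- and wild-type day 4 arrays, against 5.22 and 4.08 in the Tlr4-/- and wild-type untreated arrays. In Tlr1 the untreated Tlr4-/- array was the highest and the untreated wild-type array the lowest, at a dim signal.

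Tlr3 was read by 2 probe sets that did not run together. Probe set 1422782_s_at had 9.27 in the Tlr4-/- day 4 array and 9.49 in the wild-type day 4 array, against 8.88 in untreated Tlr4-/- and 8.48 in untreated wild-type cells. The day 4 values lay above the untreated values in each genotype, by 0.38 in Tlr4-/- and 1.01 in wild type, and the estimate was 0.70 ± 0.21 (limma adjusted p = 0.143). Probe set 1422781_at lay under the floor, with 5.79 in Tlr4-/- and 4.81 in wild type at day 4, against 4.95 in untreated Tlr4-/- and 4.68 in untreated wild-type cells. In it the Tlr4-/- day 4 array stood above the other 3 by at least 0.84.

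**Figure D2:**
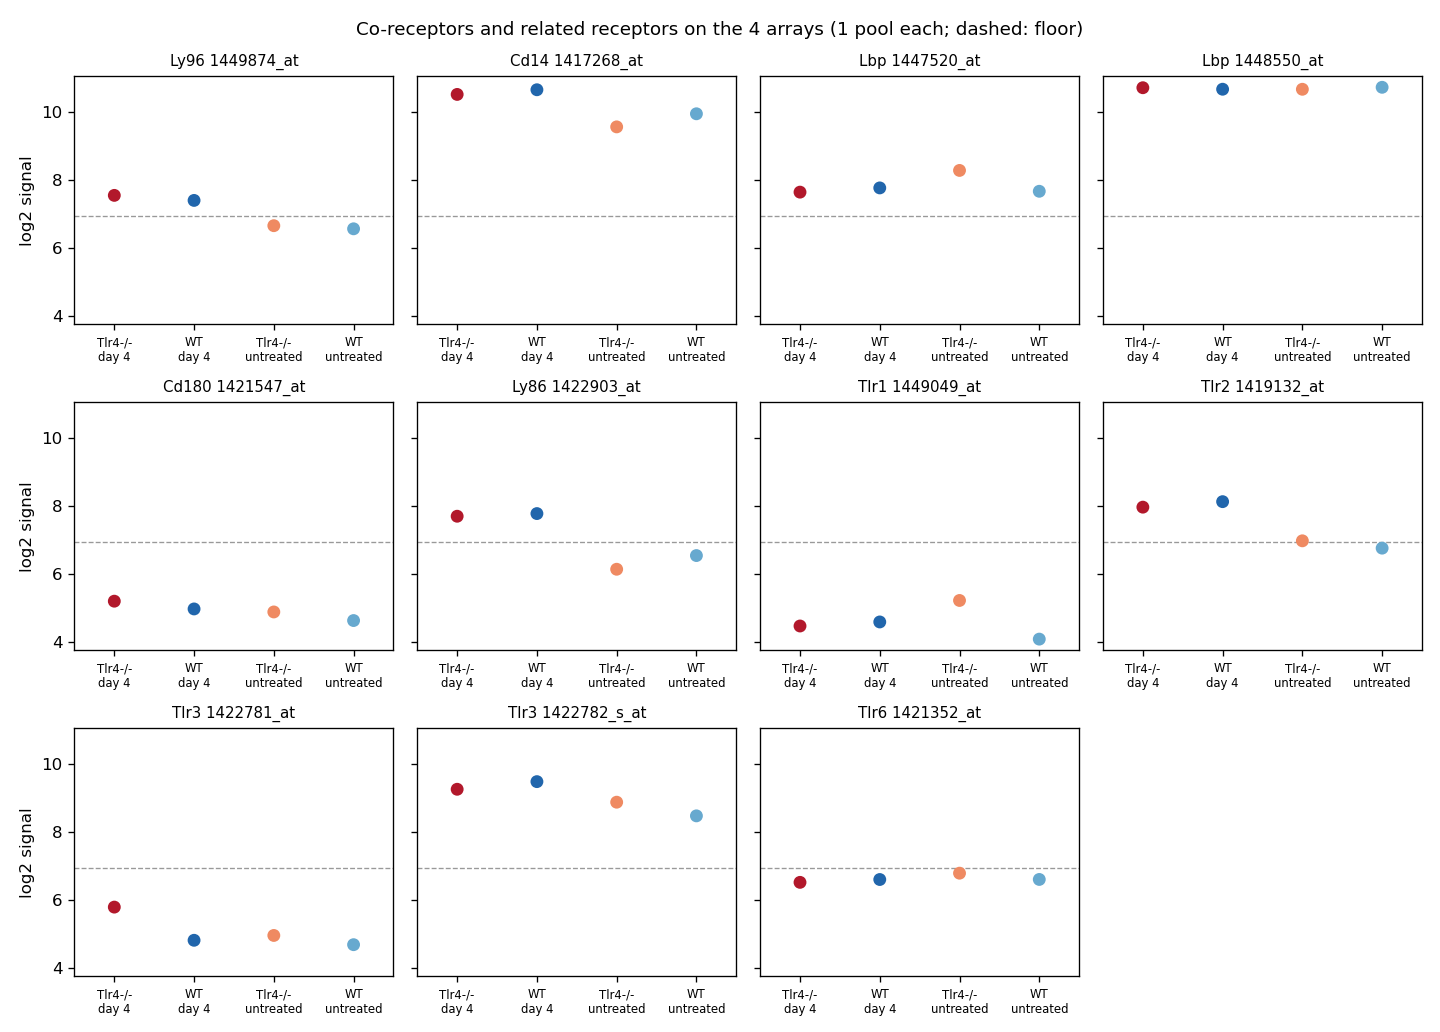
Log2 signal (y axis) of the 11 probe sets of the co-receptors and related receptors on the 4 arrays (x axis), 1 point per array and pool, with the floor of 6.96 dashed. Ly96, Cd14, Ly86, Tlr2 and Tlr3 1422782_s_at have both day 4 points above both untreated points, and so does Cd180 under the floor. How many of all probe sets do so was not counted. All points of Cd180, Tlr1, Tlr3 1422781_at and Tlr6 stay under the floor.

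Of the 15 probe sets, 5 were too dim to be tested, and Ly86 and Ly96 passed the floor through their day 4 values alone, since their untreated values were below it. The Tlr2 value of untreated wild-type cells was below it too. The counts among tested probe sets therefore describe these probe sets and are not evidence about the group of genes. Over all 15 probe sets the median difference after bleomycin was 0.30 in Tlr4-/- and 0.25 in wild type, beside -0.03 in Tlr4-/- and -0.02 in wild type over all 45037 probe sets. Above 0 were 9 of 15 in Tlr4-/- and 12 of 15 in wild type.

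**Figure D3:**
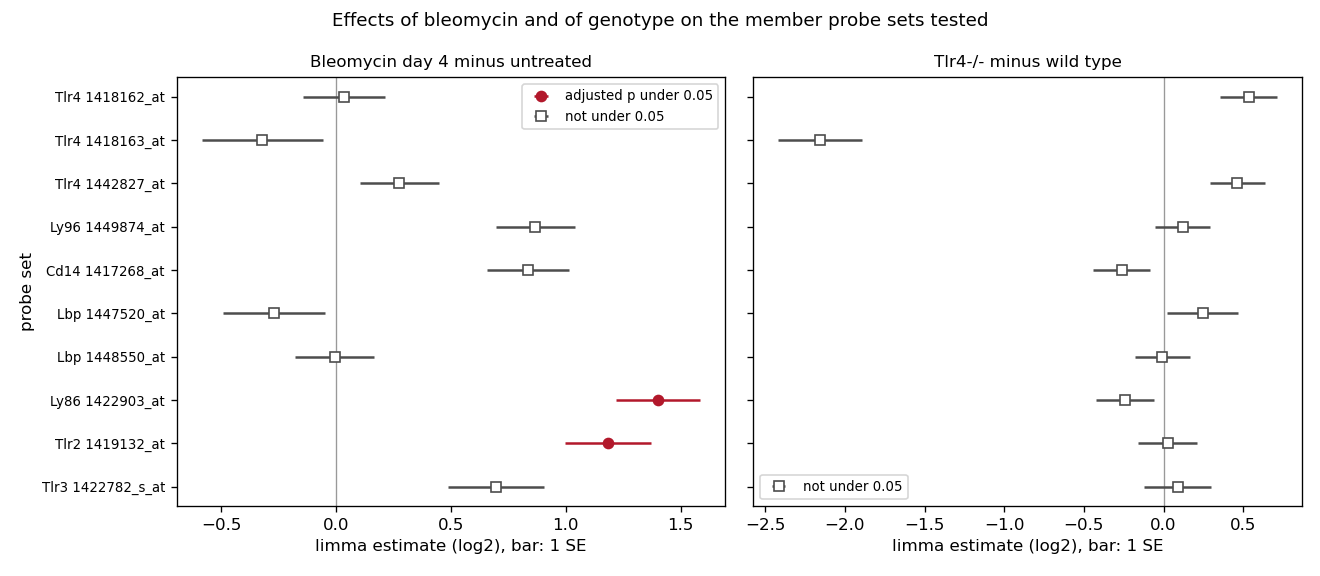
Limma estimates (x axis, log2, bar of 1 SE) of the bleomycin effect (left) and the genotype effect (right) for the 10 probe sets tested (y axis). Filled points are under an adjusted p of 0.05, which only Ly86 (1.40) and Tlr2 (1.18) reach and neither reaches without the filter on dim probe sets, and Tlr4 1418163_at stands at -2.15 for genotype without passing.

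The genotypes were then set side by side in their responses to bleomycin. Of the tested probe sets, 1 of 10 was at least 2-fold higher in Tlr4-/- (Ly86, beside 2.8% of all tested) and 3 of 10 were in wild type (Ly86, Tlr2 and Tlr3 1422782_s_at, beside 2.53%). The difference between the responses, Tlr4-/- minus wild type, was 0.33 for Ly86, 0.25 for Cd14 and 0.06 for Ly96. It was -0.38 for Tlr2 and -0.63 for Tlr3 1422782_s_at. The value for Tlr4 1418163_at was -1.06, the only one among the 10 past 2-fold (beside 1.94% of all tested probe sets that were lower by as much). It came from a difference of -0.85 in Tlr4-/- and 0.21 in wild type, and the wild-type value is within the spread. With 1 array per group these differences between responses could not be tested.

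**Figure D4:**
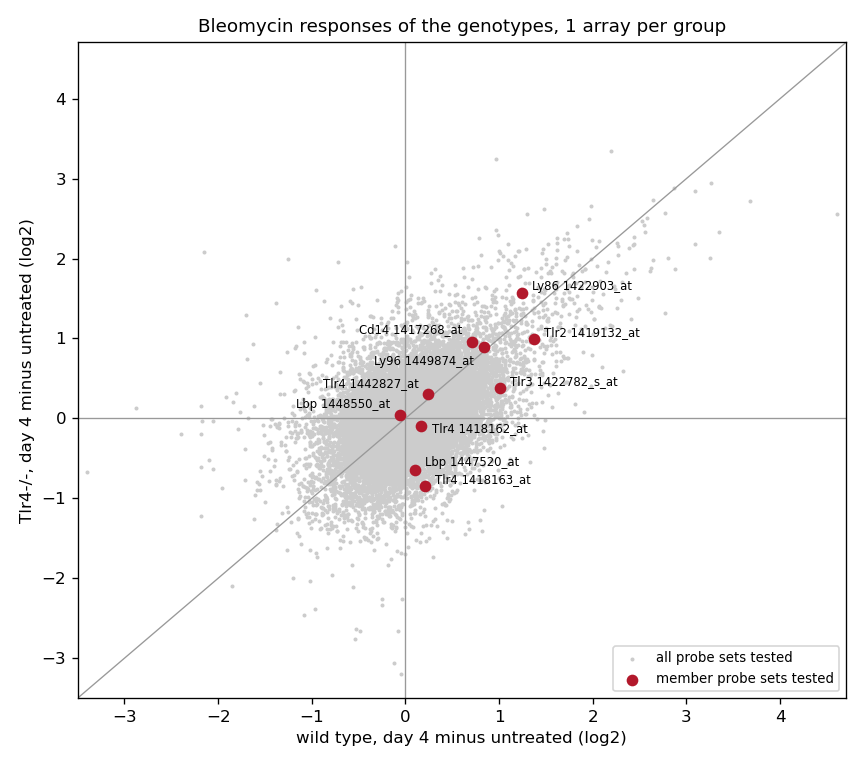
Day 4 minus untreated difference in Tlr4-/- (y axis, log2) against that in wild type (x axis, log2), 1 grey point per tested probe set (22518) and red points for the 10 receptor probe sets, with the line of equal responses. Ly86, Tlr2, Ly96, Cd14 and Tlr3 1422782_s_at lie above 0 on both axes, and Tlr4 1418163_at lies at 0.21 in wild type and -0.85 in Tlr4-/-.

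Ly86, Cd14, Ly96 and Tlr2 are also expressed by macrophages, and macrophage markers moved with them. Of 22 macrophage and pan-leukocyte genes on the array, 18 had a probe set above the floor. Of their 25 tested probe sets, 19 were called higher after bleomycin, beside 1.83% of all tested probe sets, and 0 were called lower. The median estimate was 1.45. Some passed the floor through their day 4 values alone, such as C1qa (1417381_at), at 6.17 in untreated Tlr4-/- and 5.86 in untreated wild-type cells. Without the filter limma called 0 of 45037 probe sets, so nothing is read from the count. The summed linear signal of the list, over its genes on the array with the probe sets of a gene averaged in log2 first, was 16856 in Tlr4-/- and 13384 in wild type at day 4, against 5774 in untreated Tlr4-/- and 5283 in untreated wild-type cells. The macrophage surface genes Adgre1, Fcgr1, Itgam and Siglecf averaged below the floor and were not tested. Siglecf had 7.87 in Tlr4-/- and 7.56 in wild type at day 4, against 7.08 in untreated Tlr4-/- and 4.79 in untreated wild-type cells. Adgre1 was higher at day 4 by 1.11 in Tlr4-/- and 1.41 in wild type, and Fcgr1 (1417876_at) by 1.19 in Tlr4-/- and 0.78 in wild type. The other Fcgr1 probe set (1436625_at) differed by 0.15 in Tlr4-/- and 0.26 in wild type. Itgam differed by -0.14 in Tlr4-/- and 0.52 in wild type. The part of macrophage RNA in the Ly86 and Tlr2 results was not tested, and in pooled cells a change in how many cells of a type are present and a change in RNA per cell cannot be told apart. At day 4 the macrophage sum, in linear signal, was 1.26 times as high in Tlr4-/- as in wild type. On the log2 scale the receptor differences there, Tlr4-/- minus wild type, were -0.16 for Tlr2, -0.14 for Cd14, -0.08 for Ly86 and 0.15 for Ly96. All of these lie within the spread of 0.26, and how they relate to the macrophage sum was not tested.

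Lists of other cells were read in the same way. Their counts stand beside the same 1.83% of all tested probe sets called higher and carry the same limit of the filter. Fibroblast markers rose in 5 of 7 tested probe sets, with summed signals of 1492 in Tlr4-/- and 1715 in wild type at day 4, against 686 in untreated Tlr4-/- and 893 in untreated wild-type cells. Mesothelial markers rose in 3 of 6, with sums of 3442 and 3292 in the Tlr4-/- and wild-type day 4 arrays, against 1321 and 1772 in the Tlr4-/- and wild-type untreated arrays. Neutrophil markers rose in 1 of 3, with sums of 3479 and 4927 in the Tlr4-/- and wild-type day 4 arrays, against 3095 and 4321 in the Tlr4-/- and wild-type untreated arrays. Of B cell genes, which matter for Cd180 and Ly86, 0 of 2 tested probe sets were called, and Cd79a, Ms4a1 and Pax5 averaged below the floor. Cd79a had 6.26 in Tlr4-/- and 6.32 in wild type at day 4, against 5.90 in untreated Tlr4-/- and 7.44 in untreated wild-type cells. No tested probe set was called in the lists of AEC2 (0 of 21), T and NK cells (0 of 5), endothelium (0 of 6) or airway cells (0 of 7). The sums of the AEC2 list were 102135 and 109047 in the Tlr4-/- and wild-type day 4 arrays, against 109681 and 110197 in the Tlr4-/- and wild-type untreated arrays. These sums are carried by the brightest genes, such as Sftpc. Over the tested AEC2 probe sets the median log2 difference after bleomycin was -0.16 in Tlr4-/- and -0.0084 in wild type. In Tlr4-/- it ranged from -0.99 (Abca3 1425496_at) to 0.77 (Abca3 1451869_at).

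The untreated arrays differed from each other in several marker lists. The ratio of summed signal, untreated Tlr4-/- over untreated wild type, was 0.603 for airway, 0.716 for neutrophil and 0.746 for mesothelial markers. It was 0.748 for B cell, 0.768 for fibroblast and 1.47 for T and NK cell markers. The lists of endothelium (0.932), AEC2 (0.995) and macrophages (1.09) lay nearer to equal sums. Over the tested mesothelial probe sets the median log2 difference was -1.51. The airway sum was 22216 in Tlr4-/- and 22093 in wild type at day 4, against 17644.5 in untreated Tlr4-/- and 29245 in untreated wild-type cells, so that it was higher after bleomycin in Tlr4-/- and lower in wild type. Club cell genes such as Scgb1a1 carry this sum. Tppp3 (-0.53 in Tlr4-/- and -0.60 in wild type) and Dynlrb2 (-0.67 and -0.70) were lower after bleomycin in both genotypes. Ccdc39 1429781_s_at (0.67 and 0.73) was higher in both. The T and NK cell sum was 619 in Tlr4-/- and 568 in wild type at day 4, against 884 in untreated Tlr4-/- and 602 in untreated wild-type cells. The T cell gene Cd8a (1425335_at) had 6.41 in Tlr4-/- and 6.79 in wild type at day 4, against 9.07 in untreated Tlr4-/- and 7.27 in untreated wild-type cells. The untreated Tlr4-/- array is also the one that was highest in Lbp 1447520_at and in Tlr1, and the part of these other cells in those values was not tested.

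**Figure D5:**
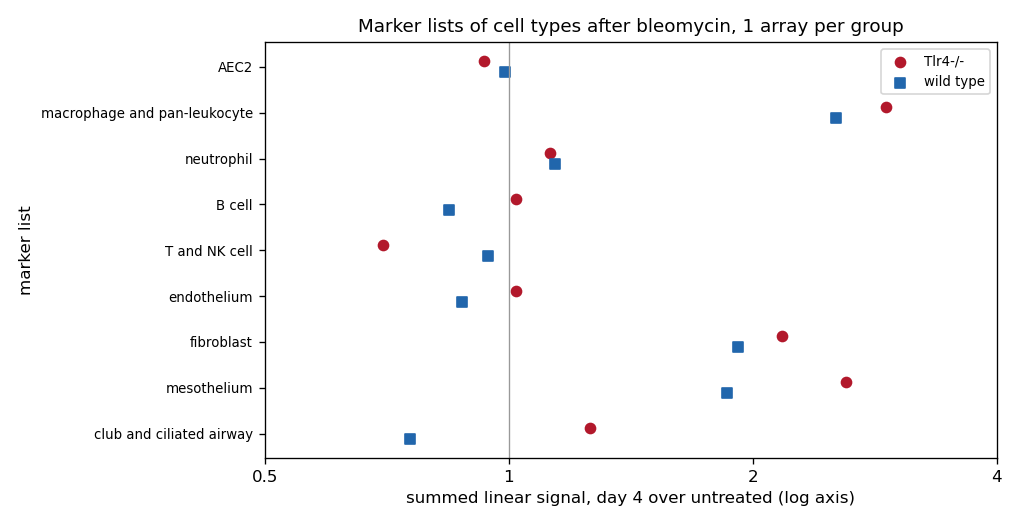
Ratio of summed linear signal, day 4 over untreated (x axis, log scale), for 9 marker lists of cell types (y axis), as a red circle for Tlr4-/- and a blue square for wild type, each from 1 array per group. The macrophage and pan-leukocyte list stands at 2.92 in Tlr4-/- and 2.53 in wild type, and the AEC2 list at 0.931 in Tlr4-/- and 0.990 in wild type.

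Further genes of the pathway were read as lists. Of 6 other Toll-like receptor genes on the array, 2 had a tested probe set (Tlr5 and Tlr12), and 0 of 3 probe sets was called for bleomycin, with a median of -0.14. The single-stranded RNA and DNA sensors Tlr7, Tlr8 and Tlr9 and the receptor gene Tlr13 averaged below the floor. Receptor chaperones and trafficking genes had 0 of 16 probe sets called and a median of 0.05. The members farthest from 0 were Rab7b (1435830_a_at), for a trafficking GTPase, with 0.53 ± 0.19, and Cnpy3, for a chaperone of Toll-like receptors, with -0.39 ± 0.17. Adaptors, kinases and receptor-level inhibitors had 0 of 30 called and a median of 0.22. The kinase genes downstream of MyD88 were highest in that list, Irak1 (1460649_at) with 0.92 ± 0.18 and Irak2 with 0.77 ± 0.17, both without passing. The median of all tested probe sets was 0.02. For genotype, 0 probe sets were called in any of these lists.

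The list of lipopolysaccharide handling and proposed ligands was the one with calls. In it 5 of 18 tested probe sets rose after bleomycin, beside 1.83% of all tested probe sets, and 0 fell, with a median of 0.32. They were 3 probe sets of Bgn, which encodes the proteoglycan biglycan, from 1.84 ± 0.18 to 2.21 ± 0.17, Fn1 (fibronectin) at 1.86 ± 0.19, and the Pltp probe set 1417963_at at 1.03 ± 0.18. Bgn 1437889_x_at passed the floor through its day 4 values alone, with 6.51 in untreated Tlr4-/- and 6.79 in untreated wild-type cells. Without the filter limma called 0 of 45037 probe sets, and nothing is read from the count, in which 3 calls are of 1 gene. Biglycan and fibronectin are matrix proteins made by fibroblasts, whose markers rose beside them, and the part of fibroblast RNA in these calls was not tested. Pltp encodes a lipid transfer protein of the same family as LBP. The next gene by size, Vcan (versican, a proteoglycan that binds hyaluronan), had 0.50 ± 0.18 through 1427257_at and was not called.

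Genes with the pattern most like a receptor's were found by the largest difference over the 4 arrays between centred log2 values, among 18816 named probe sets, for the 5 tested receptor probe sets that ranged over more than 1 (log2). For Tlr2 the nearest were Gsto1 (largest difference 0.0411), Slc25a24 (0.0575) and Tnfaip2 (0.058). For Cd14 they were Anxa8 (0.0387), Zfp655 (0.0505) and Trim12a (0.0577), and for Tlr3 1422782_s_at they were Psap (0.0247), Ntpcr (0.0265) and Scmh1 (0.0431). Ly86 was nearest to Plek (0.160), Tmem37 (0.162) and Ccn2 (0.163). No probe set came as near to Tlr4 1418163_at, where Oga, Bpifb1 and Gfpt1 were the nearest at 0.757, 0.770 and 0.817. Over 4 arrays such nearness is a description alone.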

How the data were processed

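Total RNA of flow-sorted AEC2 was amplified, biotin labelled and hybridised to Affymetrix arrays, per the labels' protocols. The deposited values have the range of log2 signals and nearly equal quantiles across arrays, so they were taken as normalized log2. How the authors summarised and normalized them, and any detection calls, are not stated in what was used here. No count or depth exists for arrays, and 1 array per group limits the precision.

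From the 45101 probe sets, 64 array controls were left out. Symbols came from the platform annotation, updated through Entrez identifiers where RefSeq held them (34741 of 34945 probe sets with 1 symbol). Probe sets of one gene were kept apart. Those with a mean over the 4 arrays above the median of all (6.96) entered linear models with empirical Bayes variances (R 4.3.3, package limma 3.58.1, default priors). The model added genotype and treatment, so each probe set had 1 residual degree of freedom and unequal responses of the genotypes counted as residual spread. Adjustment was Benjamini-Hochberg over 22518 probe sets with calls under an adjusted p-value of 0.05. The prior had 5.97 degrees of freedom. Differences between single arrays carry no test. The fit was also run on simulated data, with levels and variances taken from the real arrays and no genotype effect put in. The outcome of that run is not reported here.

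Named genes were all receptor probe sets, up to 4 members of each pathway list by size of difference, and the 3 nearest patterns of each tested receptor probe set that ranged over more than 1 (log2). The genes, lists and rules were chosen with earlier results of these data known, and the motifs after the sequences were in hand. Alternatives were no filter, a stricter one (75th percentile), median centring, quantile normalization, trend and robust priors, the average or the brightest probe set per gene, and each array left out.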

Additional observations from a re-analysis of the deposited data

Results flagged for a closer look

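The 6 probe sets listed here met both parts of a rule. The genotypes' bleomycin differences, or the treatments' genotype differences, had opposite signs. The difference between the responses (Tlr4-/- minus wild type, log2) also exceeded, in size, the spread of a single difference between arrays. It was -1.06 for Tlr4 1418163_at, -0.74 for Lbp 1447520_at, -1.26 for Tlr1 1449049_at, -0.38 for Tlr2 1419132_at, -0.63 for Tlr3 1422782_s_at and -0.27 for Tlr6 1421352_at. With 1 array per group these differences were not tested. Tlr1 and Tlr6 were below the floor on average. The spread of 0.26 is that of a single difference between arrays. A difference between responses combines the arrays of all groups, so its own spread is wider, and that was not worked out. The values of Tlr6 and Tlr2, the nearest to 0.26, are therefore not read as exceeding it.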

How the results depend on the processing

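Of the 10 probe sets tested, 2 were called for bleomycin. No filter gave 0, the stricter filter 1 (Cd14), centring on array medians 1 and quantile normalization 1 (Ly86 in both), trend and robust priors 4 (Cd14, Tlr2, Ly86 and Ly96), the average per gene 2 (Cd14 and Tlr2) and the brightest probe set per gene 1 (Cd14). The stricter filter left 4 of these probe sets in the test, without Tlr2, Ly86 and Ly96. Each gene-level fit left 4 of the genes, without Ly86 and Ly96, and Tlr2 was not among those of the brightest probe sets. Over all probe sets or genes tested, 510 calls in the fit reported became 0, 482, 289, 147, 1215, 883 and 340 in that order. Genotype gave 0 calls among these receptors in every one of the 7 alternatives. The differences of at least 2-fold numbered 7 as reported, 7 after centring and 6 after quantile normalization, and none past the spread changed sign (0). Reading Tlr4 by its brightest probe set turned the estimates of 1418163_at to 0.53 for genotype and 0.037 for bleomycin, and the average over its 4 probe sets gave -0.30 for genotype and -0.030 for bleomycin, against the signs of 1418162_at and 1442827_at. These fits replace one probe set by others. Further estimates that were not called changed sign: the bleomycin one of 1418162_at became -0.017 after quantile normalization, and the genotype ones of Lbp became -0.0070 for 1447520_at (brightest probe set) and 0.017 (centring) and 0.12 (average) for 1448550_at. Of 116 estimates under alternative fits, 97 kept direction and side of the threshold, and 10 changed direction. Without each array in turn the estimates are the differences within 1 genotype or treatment, with no test: of 80, 24 moved by more than the spread. Leaving out either array of a pair gives the same difference, so each value is counted more than once. All that moved belonged to Tlr4 1418163_at, Lbp 1447520_at and Tlr3 1422782_s_at. No paired analysis was possible because each group had 1 array and the labels give no replicate numbers.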

Other observations

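Tril encodes an accessory protein of TLR4 signalling and was read by 2 probe sets that averaged below the floor, named here after their values were seen. Probe set 1428922_at had 5.47 in Tlr4-/- and 5.83 in wild type at day 4, against 7.03 in untreated Tlr4-/- and 6.10 in untreated wild-type cells. Probe set 1452961_at had 5.21 and 5.38 in the Tlr4-/- and wild-type day 4 arrays, against 6.58 and 6.33 in the Tlr4-/- and wild-type untreated arrays. Both probe sets were lower in both day 4 arrays than in both untreated arrays. Casp4, which encodes the intracellular lipopolysaccharide sensor caspase-11, had 6.55 in Tlr4-/- and 6.50 in wild type at day 4, against 5.95 in untreated Tlr4-/- and 5.68 in untreated wild-type cells. Neither gene was tested.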
